A study of Sus scrofa with 4 samples.

Results

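The genes described here encode the proteins of the mitochondrial ribosome, read in pig (Sus scrofa) ovary by poly(A)-enriched RNA sequencing. They were taken as every row of the deposited table whose symbol begins with MRPL or MRPS, which gave 68 of 22309 rows, 41 named MRPL and 27 named MRPS. By known membership 43 belong to the large subunit and 24 to the small subunit. The remaining one, MRPS36, carries a ribosomal name but is now known as a component of the oxoglutarate dehydrogenase complex. MRPS30 and MRPS18A are named for the small subunit and sit in the large one.

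The study set 2 ovaries labelled leptin overexpression against 2 labelled WT, all sampled in diestrus, the luteal stage of the cycle. Leptin is the fat-cell hormone that signals energy stores. Per the series design, the transgenic sows were second-generation offspring of crosses between re-cloned descendants of a leptin-overexpressing pig and sows of Duroc, Landrace and Yorkshire background, and carriers were picked by PCR, qPCR and immunoblot. The promoter that drives the transgene, the age of the animals, the breeding of the WT controls and whether tissue was pooled are not given in the sources used here. LEP itself had 55 and 124 counts in the leptin overexpression libraries, against 0 and 3 in the WT libraries.

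Mitochondria carry a ribosome of their own, built from ribosomal RNAs encoded in the mitochondrial genome and from proteins encoded in the nucleus, made in the cytosol and imported. Its large subunit joins amino acids and passes the new chain through an exit tunnel toward the inner membrane, and its small subunit reads the messenger. The products are core subunits of the respiratory chain and of ATP synthase. In the ovary, steroid synthesis starts inside mitochondria, and inherited faults in some mitoribosomal genes are known in humans with premature ovarian failure.

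The libraries held 16563376 and 16564990 counts in leptin overexpression replicates 1 and 2, and 16493113 and 16797511 counts in WT replicates 1 and 2. Their TMM factors, which rescale each library so that the bulk of genes match, were 0.925 and 0.809 in leptin overexpression and 1.34 and 0.998 in WT. The share of counts from the 13 protein-coding genes of the mitochondrial genome was 15.1% and 16.4% in leptin overexpression, against 6.89% and 12.9% in WT. The libraries did not sort by genotype as a whole: leptin overexpression replicate 1 and WT replicate 2 were the most alike pair (Pearson's r of 0.958 on log2 CPM over genes, as a description), above the leptin overexpression pair (0.945) and the WT pair (0.928). The luteal markers STAR and CYP11A1 were abundant in all 4 libraries, at 7009 CPM or more for STAR and 3815 CPM or more for CYP11A1. CPM here is the count scaled to a common library total with the TMM factors.

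All 68 genes were detected in all 4 libraries, and all 68 were among the 13937 genes that passed the filter on low counts. Levels between genes were compared as FPKM, the deposited value scaled to transcript length. The median gene stood at 23.9 and 25.7 FPKM in leptin overexpression, against 31.1 and 21.6 FPKM in WT. The lowest member of a library was at 0.37 and 2.26 FPKM in leptin overexpression and at 2.72 and 3.51 FPKM in WT, and the highest at 102.03 and 98.1 FPKM against 103.68 and 82.0 FPKM. Most members therefore lay within a narrow band of moderate levels, with a short tail of low genes. Large-subunit genes had a median of 29.8 FPKM over the 4 libraries and small-subunit genes 21.5 FPKM, each gene counted by its mean.

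**Figure D1:**
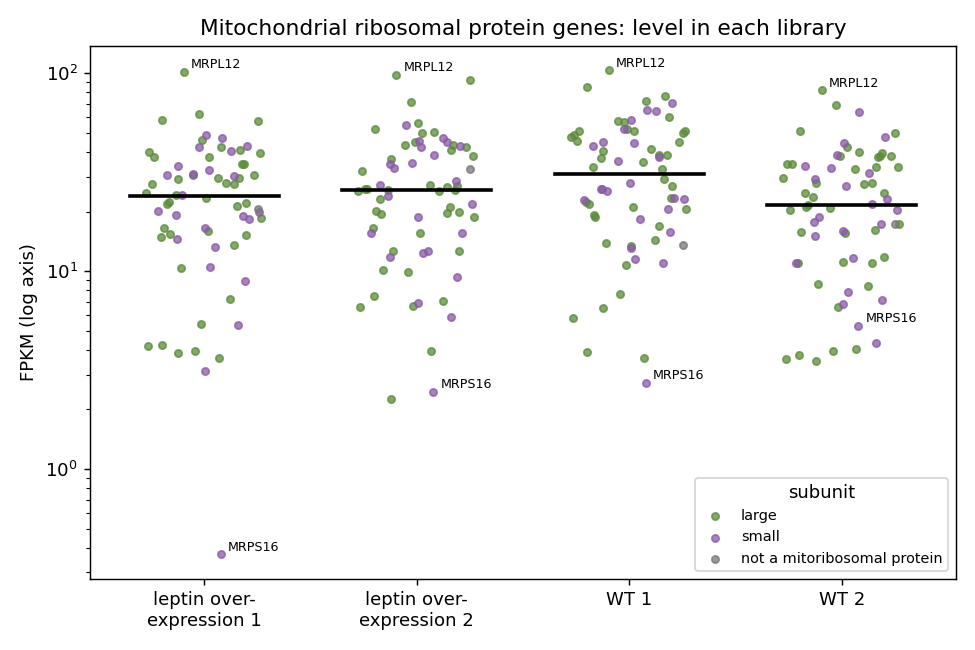
FPKM on a log axis of each of the 68 mitoribosomal protein genes in each library, with leptin overexpression replicates on the left and WT replicates on the right; each point is a gene, coloured by subunit, and black lines are medians. MRPL12 was the highest gene in all 4 libraries, and MRPS16 stood lowest in leptin overexpression replicate 1 at 0.37 FPKM.

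MRPL12 was the most abundant member. It is the counterpart of the bacterial stalk protein that recruits translation factors to the ribosome. It stood at 102.03 and 98.1 FPKM in leptin overexpression and at 103.68 and 82.0 FPKM in WT. Next came MRPL3, whose bacterial counterpart lies near the catalytic centre, at 62.1 and 71.9 FPKM in leptin overexpression and 56.6 and 69.4 FPKM in WT. MRPL33, the counterpart of a small bacterial large-subunit protein, was at 57.5 and 92.3 FPKM, against 49.8 and 50.0 FPKM in WT. MRPL24, a tunnel-exit protein, was at 57.9 and 52.4 FPKM, against 85.5 and 51.4 FPKM in WT. Of these 4, only MRPL33 had groups that did not overlap in FPKM.

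The low end of mean FPKM held MRPS16, MRPS30, MRPL36 and MRPL47. MRPS30, a mitochondrion-specific protein, was even across the libraries at 3.65 and 3.93 FPKM in leptin overexpression, against 3.65 and 4.03 FPKM in WT. The transcript length implied by its counts and FPKM was long, 6972 to 7688 bases, beside a median of 1517 bases over the members. In CPM, which is not scaled to length, MRPS30 was at 27.5 and 35.4 in leptin overexpression, against 21.0 and 30.5 in WT. MRPL36, the counterpart of a very small bacterial large-subunit protein, was at 3.87 and 2.26 FPKM, against 6.52 and 3.51 FPKM in WT. MRPS16, a core small-subunit protein with a bacterial counterpart, was the least even member, with 16 and 103 counts in leptin overexpression and 113 and 223 counts in WT. Both of its groups spread so widely that they overlapped in CPM, at 1.04 and 7.69 CPM in leptin overexpression and 5.12 and 13.3 CPM in WT.

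The comparison of genotypes asks whether these transcripts differ in ovaries of leptin-overexpressing sows. None of the 68 genes passed edgeR's quasi-likelihood test over all genes, where 4 of 13937 genes (0.0287%) did. Adjusted p ran from 0.249 to 0.999. At an unadjusted p under 0.05 there were 3 members, MRPL22, MRPS36 and MRPL33, each with higher values in leptin overexpression. That was 4.41% of members, beside 4.04% of all tested genes in that direction and 9.36% in either direction. DESeq2 called 1 member higher, MRPL22, where it called 0.718% of tested genes higher. Limma-trend on log2(FPKM + 1) also called MRPL22 alone among the members, where it called 0.646% of tested genes higher. With 2 libraries a genotype and 2 residual degrees of freedom the test has little precision, so a difference that missed the threshold is not shown to be absent. LEP itself missed edgeR's threshold, with a log2 fold change (leptin overexpression minus WT) of 6.18 (SE 1.19, edgeR adjusted p = 0.198, DESeq2 adjusted p = 3.78e-05).

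As a group the genes had small differences. On TMM-scaled counts 55 of 68 had higher values in leptin overexpression and 13 lower, with a median log2 fold change of 0.26 (leptin overexpression minus WT), whereas on log2(FPKM + 1) 21 were higher and the median was -0.14. Over all tested genes the medians were -0.01 and -0.30, and 49.3% and 26.5% of genes were higher. The direction of the group therefore turned with the scale, while its median lay above that of all tested genes by 0.27 on counts and by 0.16 on FPKM. The quartiles of the log2 fold changes on counts were 0.07 and 0.45, and 53 of 68 were smaller than 0.5 in size. Bulk tissue cannot tell fewer cells of a type from less RNA per cell, for these and all results that follow.

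**Figure D2:**
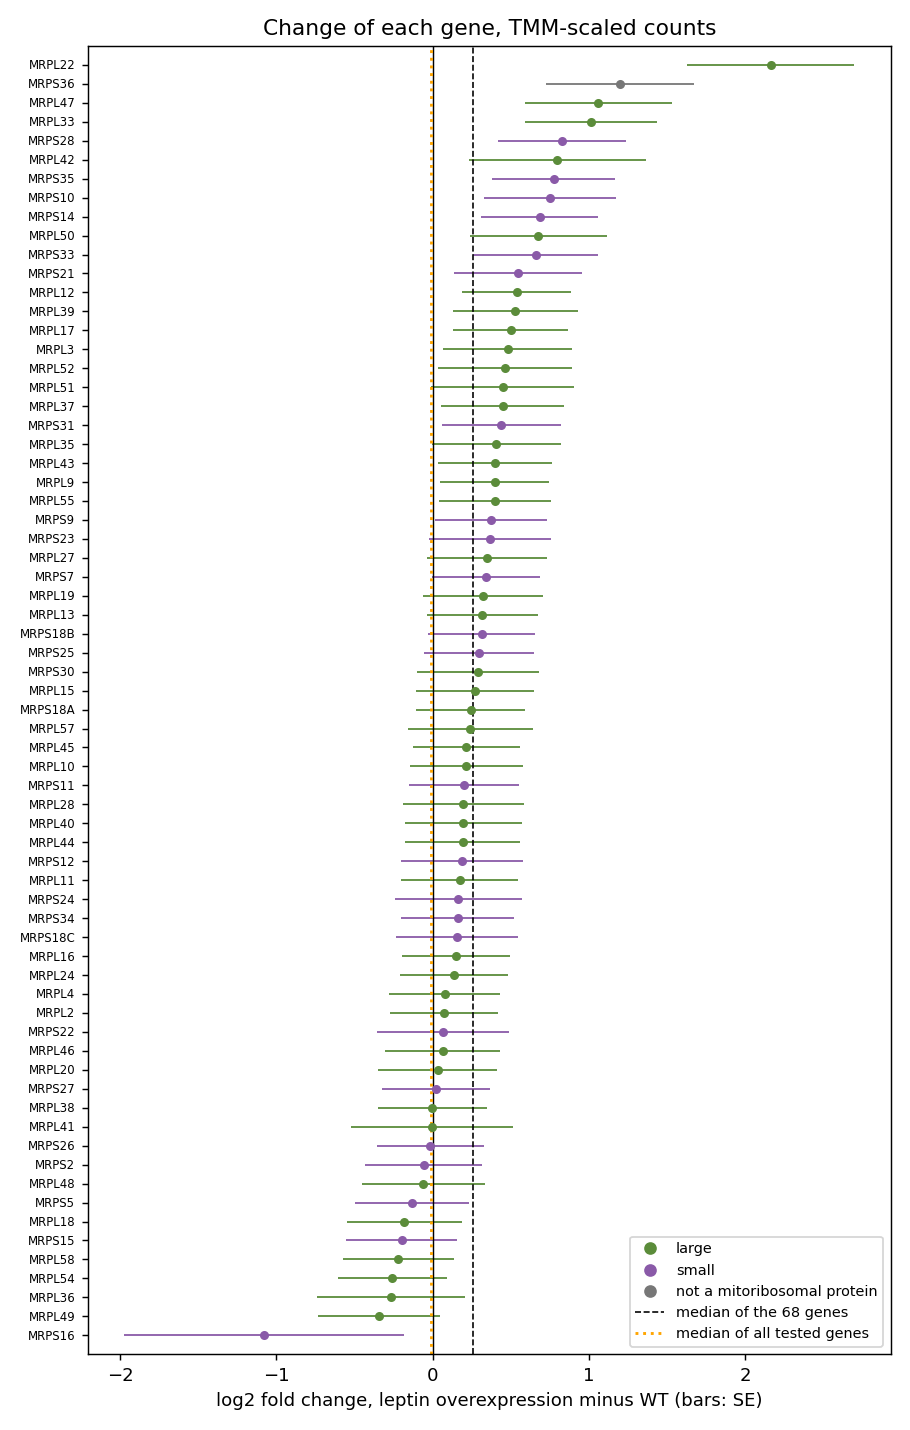
Log2 fold change (leptin overexpression minus WT, TMM-scaled counts) of the 68 genes in order of size, with bars of 1 standard error and colours for subunit; the dashed line is the median of the 68 genes and the dotted line that of all tested genes. MRPL22 at 2.16 and MRPS16 at -1.08 stand at the ends, and 63 of 68 genes lie within 1 of zero; the dashed line is at 0.26 on this scale and would be at -0.14 on FPKM.

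On TMM-scaled CPM the 2 groups did not overlap for 29 members with higher values in leptin overexpression (42.6% of members, beside 22.2% of all tested genes) and for 1 with lower values, MRPL54 (1.47%, beside 22.8%). On FPKM the counts were 4 higher (5.88%, beside 6.85% of all tested genes) and 15 lower (22.1%, beside 39.7%). The 4 with higher FPKM were MRPL22, MRPS36, MRPL47 and MRPL33, which were also the 4 with the largest log2 fold changes on counts. The other 25 members above WT on counts did not keep both leptin overexpression libraries above both WT libraries on FPKM. The share of 5.88% was near that of all tested genes, so it is not read as a trait of the members. Both scales come from the same 4 libraries, so the second is no separate support for the first.

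The difference between the genotype means was about as large as that between the 2 libraries of a genotype. A mean of 2 libraries varies less than a single library, so the measures are unlike. Similar sizes therefore do not show that the genotypes are alike. The median size of the log2 difference was 0.29 between the group means, 0.30 between the 2 leptin overexpression libraries and 0.28 between the 2 WT libraries. Over all tested genes the corresponding medians were 0.46, 0.50 and 0.40, and the members' medians were the smaller in each of the 3. All tested genes were not matched to the members in level, so the smaller medians are not read as a trait of the members. For all tested genes a small constant was added to CPM before the differences within a genotype were taken. For the members none was added, so those medians are not strictly alike. In 21 of 68 members the difference between the genotypes was larger than both differences within them. The same count was not made over all tested genes, so it is not read as a trait of the members.

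Many members were highest in the same library, and which library that was depended on the scale. On TMM-scaled CPM, 48 of 68 genes had their highest value in leptin overexpression replicate 2, and 56 of 68 were higher there than in leptin overexpression replicate 1. On FPKM, 49 of 68 had their highest value in WT replicate 1. WT replicate 2 held the lowest value of 35 members on either scale. None of these counts was made over all tested genes, so they are not shown to be particular to the members. Summed over the 68 genes the level was 2986.7 and 3884.5 CPM in leptin overexpression, against 2654.8 and 2608.5 CPM in WT. As a share of all counts, with no scaling factor, it was 0.276% and 0.314% in leptin overexpression, against 0.356% and 0.260% in WT. Exact binomial 95% intervals of these shares were 0.274% to 0.279% and 0.311% to 0.317% in leptin overexpression, and 0.353% to 0.358% and 0.258% to 0.263% in WT, covering counting error only. WT replicate 1, the library with the TMM factor of 1.34, thus had the largest share, and the groups did not overlap in CPM but did in share.

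**Figure D3:**
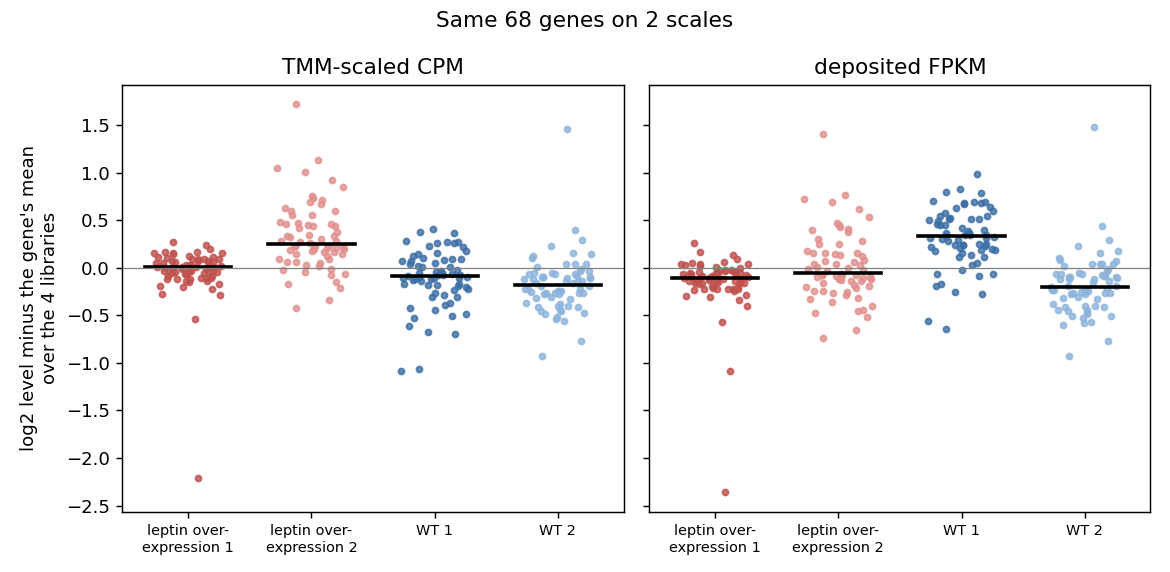
Log2 level of each of the 68 genes minus its own mean over the 4 libraries, as TMM-scaled CPM (left panel) and as deposited FPKM (right panel), leptin overexpression before WT; points are genes and black lines medians. The medians on CPM were 0.00 and 0.25 in leptin overexpression against -0.08 and -0.18 in WT, and on FPKM -0.11 and -0.05 against 0.33 and -0.20, so WT replicate 1 changes place between the panels.

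MRPL22 had the largest difference. Its bacterial counterpart reaches into the tunnel through which the new protein chain leaves. It had 2565 and 6103 counts in leptin overexpression, against 1460 and 1225 in WT. On CPM that was 167.4 and 455.6 in leptin overexpression and 66.1 and 73.05 in WT, so both leptin overexpression libraries lay above both WT libraries, and the leptin overexpression libraries differed from each other more than the WT libraries did. The log2 fold change was 2.16 (SE 0.53, edgeR adjusted p = 0.249, DESeq2 adjusted p = 0.00325), and 133 of 13937 tested genes had one as large or larger. On FPKM the gene was at 23.5 and 56.0 in leptin overexpression, against 13.5 and 11.1 in WT (log2 difference 1.5 on log2(FPKM + 1), limma adjusted p = 0.0253). Leptin overexpression replicate 2 weighed most on its size. Without that library the log2 fold change was 1.28 (edgeR adjusted p = 1.00), and without the other libraries in turn it was 2.06 to 2.73.

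MRPS36, the dehydrogenase component, came second. It was at 32.4 and 60.2 CPM in leptin overexpression, against 13.7 and 26.6 CPM in WT, with a log2 fold change of 1.2 (SE 0.48, edgeR adjusted p = 0.509). The groups did not overlap, but the gap between their nearest libraries was smaller than the spread within either genotype. Without leptin overexpression replicate 2 its log2 fold change was 0.70, and without WT replicate 1 it was 0.77.

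MRPL47, the counterpart of a bacterial protein at the tunnel exit, was at 14.4 and 29.1 CPM in leptin overexpression, against 9.10 and 11.8 CPM in WT (log2 fold change 1.06, SE 0.47, edgeR adjusted p = 0.533). MRPL33 was at 32.7 and 60.0 CPM, against 19.6 and 26.4 CPM in WT (1.01, SE 0.42, edgeR adjusted p = 0.523). MRPS28, of the small subunit, was at 18.9 and 29.4 CPM, against 13.7 and 13.5 CPM in WT (0.83, SE 0.41, edgeR adjusted p = 0.564). In each of these 3 genes leptin overexpression replicate 2 was the highest library, and both WT libraries lay below both leptin overexpression libraries. Without leptin overexpression replicate 2 the log2 fold changes were 0.475 for MRPL47, 0.523 for MRPL33 and 0.485 for MRPS28. For MRPS28 the groups overlapped on FPKM.

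**Figure D4:**
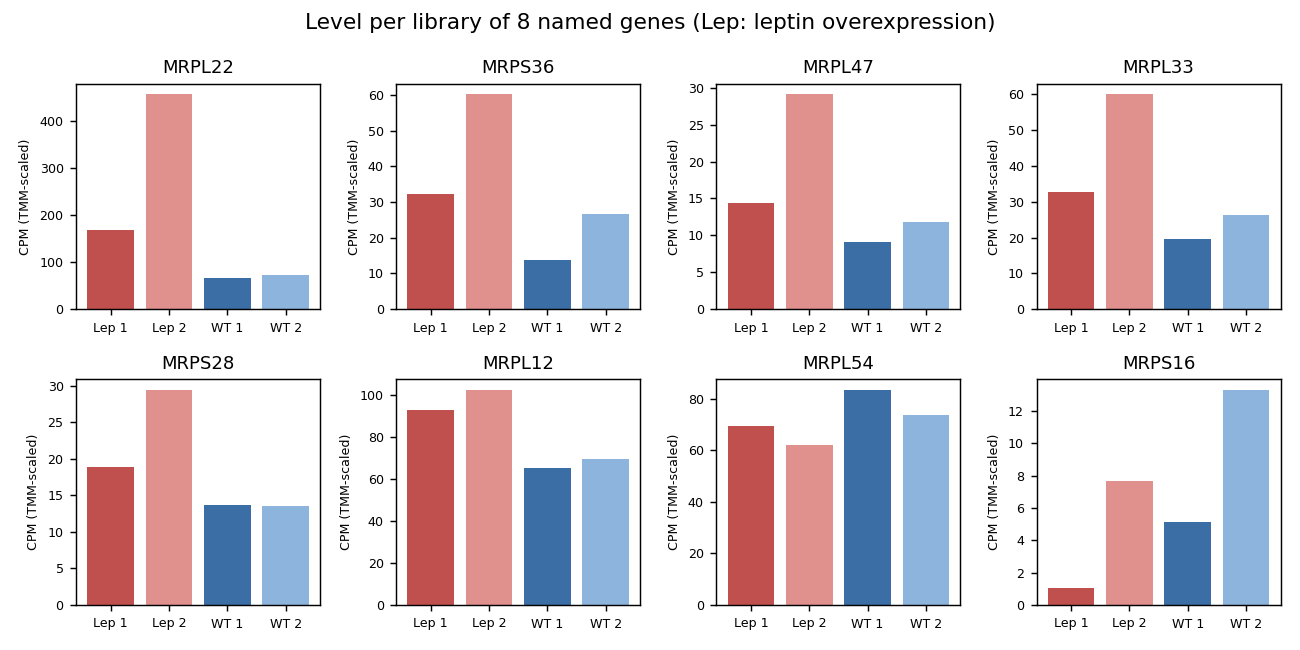
TMM-scaled CPM of 8 named genes in each library (red bars, leptin overexpression replicates; blue bars, WT replicates), each panel with its own axis from 0. MRPL22, MRPS36, MRPL47, MRPL33, MRPS28 and MRPL12 had both leptin overexpression libraries above both WT libraries, MRPL54 had both below, and MRPS16 overlapped; none passed edgeR's threshold.

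MRPL54, a mitochondrion-specific large-subunit protein, was the only member with both leptin overexpression libraries below both WT libraries in CPM. It was at 69.3 and 61.8 CPM in leptin overexpression, against 83.3 and 73.5 CPM in WT, a narrow gap (log2 fold change -0.26, SE 0.35, edgeR adjusted p = 0.81). On FPKM it was at 34.7 and 27.1 in leptin overexpression and 60.3 and 39.7 in WT. MRPS16 had the most negative log2 fold change, -1.08, with an SE of 0.89 and groups that overlapped in CPM (edgeR adjusted p = 0.686). In FPKM its groups did not overlap, at 0.37 and 2.46 in leptin overexpression and 2.72 and 5.29 in WT. Without leptin overexpression replicate 1, where it had 16 counts, its log2 fold change was -0.25, and without the other libraries in turn it was -3.12 to -0.28.

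MRPL51 was among the 3 members most different between the WT libraries, and MRPL42 among the 3 most different between the leptin overexpression libraries. Both were highest in leptin overexpression replicate 2 and lowest in WT replicate 2. MRPL51, a mitochondrion-specific large-subunit protein, was at 32.9 and 52.9 CPM in leptin overexpression, against 42.2 and 20.6 CPM in WT, so WT held both the lowest library and one above a leptin overexpression library. MRPL42, also mitochondrion-specific, was at 9.46 and 30.2 CPM in leptin overexpression, against 13.4 and 9.30 CPM in WT. Its value of 0.80 (SE 0.57, edgeR adjusted p = 0.644) rested on leptin overexpression replicate 2, without which it was -0.25.

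Taken by place in the ribosome, the stalk and the centre that activates translation factors were represented by MRPL10, MRPL11 and MRPL12, and all 3 had higher values on counts (median log2 fold change 0.22), against 1 of 3 on FPKM (median -0.20). MRPL12 was at 93.2 and 102.5 CPM in leptin overexpression, against 65.4 and 69.4 CPM in WT (log2 fold change 0.54, SE 0.35, edgeR adjusted p = 0.617). The libraries of each genotype were close together and the groups did not overlap, though its FPKM groups did. MRPL10, which anchors the stalk, was at 28.1 and 31.9 CPM, against 25.9 and 25.8 CPM in WT, and MRPL11, at the stalk base, was at 23.4 and 28.4 CPM, against 24.7 and 21.2 CPM in WT.

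The exit-tunnel group held MRPL22, MRPL24, MRPL39, MRPL44, MRPL45 and MRPL47, and all 6 had higher values on counts (median 0.37), against 3 of 6 on FPKM (median -0.02). MRPL45, which tethers the ribosome to the inner membrane, was at 69.6 and 64.1 CPM in leptin overexpression, against 58.7 and 56.4 CPM in WT. MRPL24 was at 62.6 and 64.6 CPM, against 63.7 and 51.9 CPM in WT. The other tunnel members were uneven: MRPL39 was at 40.1 and 64.5 CPM in leptin overexpression and 29.6 and 42.9 CPM in WT, and MRPL44 at 40.1 and 40.9 CPM against 29.1 and 41.8 CPM. MRPL22 and MRPL47 apart, the log2 fold changes of this group were between 0.14 and 0.53, with edgeR adjusted p of 0.661 to 0.901.

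The group at the decoding centre and the path of the messenger held MRPS2, MRPS5, MRPS7, MRPS9, MRPS11, MRPS12 and MRPS24. Of these 7, 5 had higher values on counts (median 0.19) and 0 on FPKM (median -0.20). MRPS12, whose bacterial counterpart monitors codon pairing, was at 17.0 and 19.0 CPM in leptin overexpression, against 17.4 and 14.1 CPM in WT. MRPS5 was at 31.8 and 31.0 CPM, against 39.0 and 29.7 CPM in WT, and MRPS2 at 26.4 and 25.5 CPM, against 23.2 and 30.8 CPM in WT. For MRPS5 and MRPS2 the WT libraries enclosed both leptin overexpression libraries, and for MRPS12 the groups overlapped. MRPS9, on the head of the small subunit, was at 77.9 and 97.3 CPM in leptin overexpression, against 62.0 and 73.2 CPM in WT. MRPS24, at the messenger entry, was at 24.3 and 29.3 CPM, against 29.8 and 18.1 CPM in WT. MRPS11, on the platform, was at 38.8 and 36.7 CPM, against 32.9 and 32.9 CPM in WT. It is the neighbour of MRPL46 in the RefSeq gene order, the only such pair among the members, and MRPL46 was at 23.6 and 28.7 CPM in leptin overexpression, against 25.1 and 24.9 CPM in WT.

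Mammals carry 3 relatives of the bacterial protein S18, which take different places in the ribosome. MRPS18A was at 40.9 and 42.4 CPM in leptin overexpression, against 33.1 and 37.2 CPM in WT, and MRPS18B at 74.9 and 79.9 CPM, against 61.5 and 63.0 CPM in WT. Both had groups that did not overlap on counts, with MRPS18A lower in leptin overexpression on FPKM (29.6 and 27.4 FPKM, against 35.8 and 32.7 FPKM in WT). MRPS18C was even on TMM-scaled CPM, at 16.1 and 19.3 CPM in leptin overexpression and 16.8 and 15.0 CPM in WT, and uneven on FPKM. It had 247 and 258 counts in leptin overexpression and 371 and 251 in WT, but 3.11 and 6.93 FPKM in leptin overexpression, against 13.1 and 6.82 FPKM in WT. The transcript length implied by counts and FPKM was 4789 and 2249 bases in leptin overexpression and 1719 and 2190 bases in WT, a 2.79-fold range. Its difference was 0.15 on counts (SE 0.39, edgeR adjusted p = 0.902) and -0.88 on log2(FPKM + 1) (limma adjusted p = 0.388). Among the members 57 of 68 kept an implied length within 1.1-fold over the libraries, and 3 varied by more than 1.2-fold, the others being MRPS25 (1.63-fold) and MRPL35 (1.36-fold).

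Of the members tied to premature ovarian failure in humans, MRPS22, MRPS7 and MRPL50, all 3 had higher values on counts and 1 of 3 on FPKM. MRPS22, a mitochondrion-specific protein, was at 34.5 and 45.5 CPM in leptin overexpression, against 50.2 and 26.2 CPM in WT (log2 fold change 0.07, SE 0.42, edgeR adjusted p = 0.964). The WT libraries enclosed both leptin overexpression libraries. MRPS7 was at 52.8 and 61.7 CPM, against 48.1 and 42.2 CPM in WT (0.34, SE 0.35, edgeR adjusted p = 0.739). MRPL50 was at 14.9 and 26.9 CPM, against 14.2 and 11.9 CPM in WT (0.68, SE 0.44, edgeR adjusted p = 0.617). For MRPL50 the lower leptin overexpression library lay just above the higher WT library, and without leptin overexpression replicate 2 its log2 fold change was 0.21.

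The subunits did not stand far apart. On counts 35 of 43 large-subunit genes had higher values (median 0.24, and -0.18 on FPKM), as did 19 of 24 small-subunit genes (median 0.25, and -0.13 on FPKM). Genes with a bacterial counterpart were higher in 29 of 35 (median 0.22, and -0.16 on FPKM) and mitochondrion-specific genes in 23 of 30 (median 0.24, and -0.19 on FPKM). MRPS18A and MRPS18B, relatives of bacterial S18, were counted here as mitochondrion-specific. MRPS36 and the members left unclassified were in neither class. Differences between these classes were not tested. The 37 members outside the rule for named genes had mean levels of 7.34 to 53.7 FPKM and log2 fold changes on counts of -0.35 (MRPL49) to 0.77 (MRPS35), with 29 higher and 8 lower (10 of 37 higher on FPKM) and edgeR adjusted p of 0.567 to 0.999.

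The other genes of mitochondrial gene expression gave 0 calls by edgeR in every list, beside the same 0.0287% of all tested genes. Of their 212 tested rows, cytosolic ribosomal and oxidative phosphorylation genes included, 18 had an unadjusted p under 0.05 (8.49%, beside 9.36% of all tested genes). DESeq2 called 5 higher (2.36%, beside 0.718% of all tested genes; COX2, ND3, ATP8 and ND4L of the mitochondrial genome and RPL23A of the cytosolic ribosome), and limma-trend on FPKM called 0. The medians of most lists had opposite signs on the count and FPKM scales. Of 6 further mitoribosomal and ribosome-bound proteins under other symbols, 5 had higher values on counts (median 0.12, and -0.26 on FPKM). Among them OXA1L, the insertase at the tunnel exit, was at 225.5 and 231.9 CPM in leptin overexpression, against 187.4 and 191.7 CPM in WT, and DAP3, a small-subunit protein, at 52.2 and 62.3 CPM against 42.5 and 59.1 CPM. Ribosome assembly genes were divided, 13 higher and 14 lower of 27 (median -0.01, and -0.39 on FPKM). MALSU1, an assembly factor of the large subunit, was at 69.6 and 75.1 CPM in leptin overexpression, against 21.5 and 37.1 CPM in WT (log2 fold change 1.3, SE 0.39, edgeR adjusted p = 0.34). MTERF3, which acts in mitochondrial transcription and ribosome assembly in mice, was at 60.2 and 115.4 CPM, against 59.5 and 49.5 CPM in WT.

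Translation factors had 15 of 21 higher on counts (median 0.42, and -0.07 on FPKM). TUFM, the elongation factor that delivers transfer RNAs, was level at 164.2 and 164.3 CPM in leptin overexpression and 154.2 and 157.6 CPM in WT, and SLIRP, which stabilises mitochondrial messengers, was at 18.5 and 31.2 CPM against 21.3 and 15.7 CPM. Aminoacyl-tRNA synthetases had 12 of 19 higher (median 0.09, and -0.34 on FPKM). KARS1, which also serves the cytosol, was at 582.7 and 799.1 CPM in leptin overexpression, against 474.1 and 424.4 CPM in WT, and IARS2 was at 142.4 and 152.7 CPM against 135.7 and 140.4 CPM. Transcription and RNA processing genes had 12 of 18 higher (median 0.38, and -0.04 on FPKM). HSD17B10, a subunit of mitochondrial RNase P, was at 70.3 and 71.8 CPM, against 51.6 and 54.3 CPM in WT, and FASTK at 30.2 and 27.8 CPM against 36.0 and 18.7 CPM. The regulators of mitochondrial biogenesis were divided, 4 higher and 5 lower (median -0.01, and -0.50 on FPKM). YY1 was at 84.0 and 85.0 CPM in leptin overexpression, against 67.6 and 79.4 CPM in WT, and MYC at 32.6 and 13.9 CPM against 21.2 and 25.6 CPM.

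Values of the nearest gene groups are given for comparison. Nuclear genes of oxidative phosphorylation had 27 of 28 higher on counts (median 0.34, and -0.08 on FPKM), with COX6C at 198.5 and 337.5 CPM in leptin overexpression, against 129.8 and 131.2 CPM in WT, and ATP5B at 1140 and 1113 CPM against 975.5 and 1169 CPM. Cytosolic ribosomal protein genes had 70 of 71 higher (median 0.71), and their median on FPKM was also above zero, at 0.26. RPS2 was at 3077 and 5313 CPM, against 3039 and 2861 CPM in WT, and RPLP1 at 1464 and 2037 CPM against 972.9 and 963.1 CPM. The mitochondrially encoded genes, whose messengers these ribosomes read, had 13 of 13 higher (median 1.43, and 1.04 on FPKM). COX1 was at 81390 and 73820 CPM in leptin overexpression, against 23360 and 73130 CPM in WT, and COX3 at 27230 and 24550 CPM against 8587 and 18470 CPM. For COX1 leptin overexpression replicates and WT replicate 2 were close together, and WT replicate 1 was low, and without that library its log2 fold change was 0.07, against 0.69 with all libraries. Differences between these lists and the mitoribosomal genes were not tested.

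**Figure D5:**
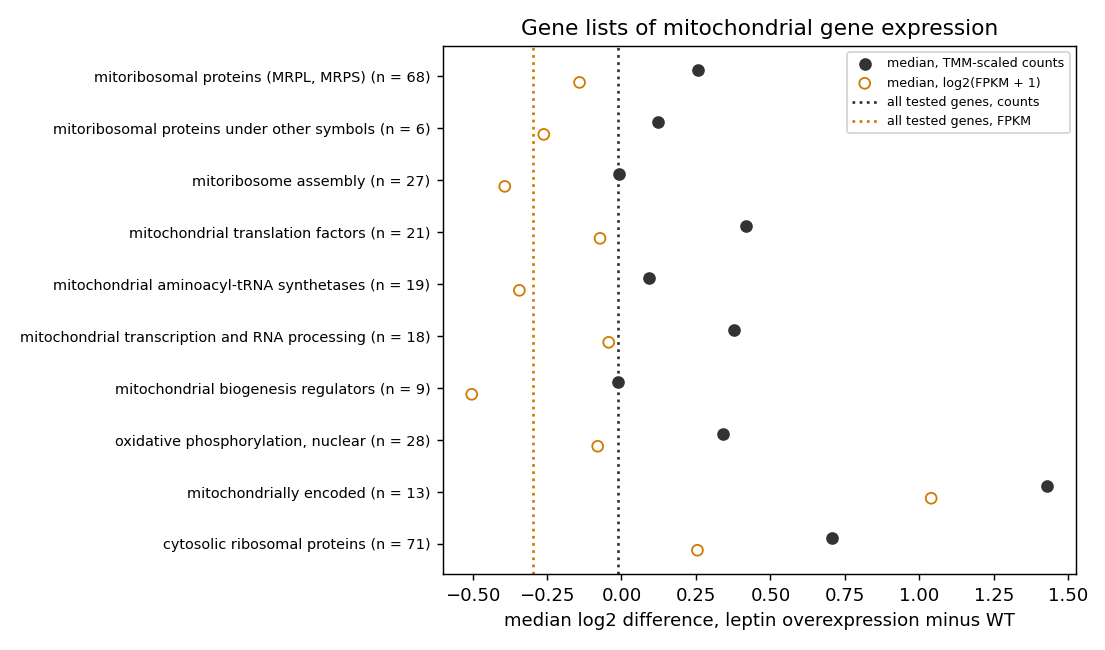
Median log2 difference (leptin overexpression minus WT) of the mitoribosomal protein genes and of related lists, on TMM-scaled counts (filled points) and on log2(FPKM + 1) (open points); dotted lines are the medians of all tested genes on each scale, and n is the number of tested genes. The mitoribosomal median was 0.26 on counts and -0.14 on FPKM, and the cytosolic ribosomal and mitochondrially encoded lists were above zero on both.

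Of 61 tested markers of ovarian and other cells, 0 passed edgeR's threshold. At an unadjusted p under 0.05 there were 15 (24.6%, beside 9.36% of all tested genes), and DESeq2 called 10 (16.4%), all lower and 7 of them epithelial, where it called 1.47% of all tested genes lower. The summed levels below were not tested. Summed over 9 tested oviduct and surface epithelium markers, the level was 6.46 and 68.6 CPM in leptin overexpression, against 544.9 and 283.5 CPM in WT, with 8 of 9 lower. FOXJ1, SPAG6, KRT18 and TEKT1 were each at 0 in at least 1 library. Immune markers summed to 174.2 and 169.8 CPM, against 278.2 and 287.0 CPM in WT (10 of 12 lower), and smooth muscle markers to 456.9 and 705.3 CPM, against 1129 and 1122 CPM in WT (6 of 6 lower). These 3 sums did not overlap between the genotypes, and the next 2 did. Endothelial markers summed to 931.1 and 433.5 CPM, against 746.5 and 1351 CPM in WT (7 of 8 lower). Oocyte markers, of which DAZL and OOSP2 were at 0 in all libraries, summed to 21.7 and 24.8 CPM, against 143.3 and 23.8 CPM in WT (6 of 6 tested lower). Sums of the other ovarian lists overlapped too: luteal markers summed to 42690 and 46580 CPM in leptin overexpression and 20220 and 45290 CPM in WT, granulosa markers to 1831 and 1668 CPM against 1631 and 1755 CPM, and theca markers to 859 and 388 CPM against 202.2 and 1749 CPM. Of the luteal markers 6 of 7 had higher values, of the granulosa markers 5 of 9 and of the theca markers 1 of 4. The part of cell makeup, of the mitochondrially encoded share and of the scaling factors in the values of the mitoribosomal genes was not tested.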

How the data were processed

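Poly(A)-enriched RNA was sequenced on an Illumina platform (NovaSeq), as the labels' protocols state. The authors deposited expected counts per gene, which need not be whole and are not scaled to depth, and FPKM values, scaled to length and depth, per the file headers. Among the tools in the submitters' processing notes are RSEM, HISAT2 and Bowtie2 2.2.8, with fastp 0.18.0, edgeR 3.32.0, StringTie 1.3.1 and DESeq2, without roles. No source used here gives the genome build or the use of strand in counting. Coordinates and sequences are therefore not printed, and reads of overlapping genes cannot be assigned with certainty.

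Control columns were matched to the WT samples by number, and expected counts were rounded. Genes were filtered with filterByExpr (13937 kept, 8372 removed), scaled with TMM factors and compared by edgeR's robust quasi-likelihood test (R 4.3.3 with edgeR 4.0.16 and limma 3.58.1; genotype only, 2 residual degrees of freedom), with Benjamini-Hochberg adjustment over all tested genes and a threshold of 0.05. Positive log2 fold changes mean higher in leptin overexpression, and their SE is the fold change's size divided by the root of the F statistic. CPM was scaled by TMM, so 3 counts were 0.196 and 0.224 CPM in leptin overexpression and 0.136 and 0.179 CPM in WT. Deposited FPKM was also tested by limma-trend on log2(FPKM + 1), which understates changes of low genes. The script was tested on simulated data. An exact permutation test of 2 against 2 libraries cannot give a two-sided p below 0.333 and was not used.

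Members, lists and tests were chosen with earlier results of these data known. Named by rule were the 4 members highest and the 4 lowest in FPKM, the up to 5 largest changes per direction with groups that did not overlap in CPM, the 3 members most different within each genotype, the role lists, MRPS30, MRPS36, and the 2 most abundant genes of each related list. MRPS25, MRPL35, MRPL46, MRPL49, MRPS35, the marker genes and genes called by DESeq2 were named after their values were seen. Results were recomputed with upper-quartile factors, RLE factors, library totals without factors, no filter, 1 CPM in 2 libraries, DESeq2 1.42.0, FPKM with a pseudocount of 1 or 0.1, a replicate block, and each library left out. Nothing in the labels says that the libraries of a genotype are from separate animals. The p-values then reflect only how these samples vary, which may be technical variation.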

Additional observations from a re-analysis of the deposited data

How the results depend on the processing

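The number of mitoribosomal genes past the threshold was 0, and was 1, MRPL22, with library totals without scaling factors (a setting chosen after seeing the data), without the filter, by DESeq2, by limma-trend with either pseudocount, and without WT replicate 2; leaving out each library gave 0 to 1. The adjusted p of MRPL22 was then 0.0165, 0.00865, 0.00325, 0.0253, 0.024 and 0.0198; its other alternatives gave 0.101 to 1.00. Over all genes 4 passed, against 11 with upper-quartile factors, 551 with unscaled totals, 252 without the filter, 305 by DESeq2, 464 and 487 on FPKM with pseudocounts of 1 and 0.1, and 0 to 681 without one library (1 without leptin overexpression replicate 1, 0 without replicate 2, 153 without WT replicate 1, 681 without WT replicate 2). A group left with 1 library is assumed to vary like the other. The median log2 fold change of the members, 0.26, was -0.19 with unscaled totals and -0.14 and -0.15 on FPKM, and 0.14 to 0.37 without one library. All tested genes had medians of -0.43, -0.30 and -0.40 in the first 3 of these. Minus that of all tested genes the members' median was 0.27, and 0.16 to 0.47 without one library, and no alternative turned it. A change of scaling factors alone shifts all genes nearly alike and largely cancels in this difference. Those settings could therefore not have turned it, and their likeness is not read as support. Members with higher values numbered 55, against 17 with unscaled totals and 21 and 21 on FPKM. The log2 ratio of the summed level, 0.39, was -0.12 for summed FPKM and -0.0609 with unscaled totals, and 0.18 to 0.56 without one library. Of 637 values of 49 named genes under 13 alternatives, 542 kept direction and side of the threshold, 6 (all MRPL22) passed it, and 89, of 30 genes, changed sign. None of the 89 was past the threshold on either side, and in 5 (MRPS9 on 3 settings, HSD17B10, MRPL42) the fold change with all libraries was larger than its SE. With unscaled totals 25 turned: MRPL24 -0.317, MRPS30 -0.115, MRPL51 -0.0759, MRPL10 -0.223, MRPL11 -0.283, MRPL45 -0.216, MRPL44 -0.202, MRPS12 -0.27, MRPS24 -0.326, MRPS7 -0.111, MRPS9 -0.0522, MRPS11 -0.228, MRPS18A -0.179, MRPS18B -0.119, MRPS18C -0.297, MRPS22 -0.442, OXA1L -0.16, DAP3 -0.234, TUFM -0.355, SLIRP -0.0643, IARS2 -0.336, HSD17B10 -0.00422, FASTK -0.407, YY1 -0.214 and ATP5B -0.34. On FPKM 22 turned, given with pseudocounts of 1 and 0.1: MRPL24 -0.262 and -0.266, MRPS30 -0.0145 and -0.0177, MRPL10 -0.201 and -0.21, MRPL11 -0.241 and -0.248, MRPL45 -0.188 and -0.193, MRPL44 -0.194 and -0.202, MRPS12 -0.164 and -0.172, MRPS24 -0.205 and -0.215, MRPS7 -0.0752 and -0.0763, MRPS9 -0.0474 and -0.0494, MRPS11 -0.218 and -0.222, MRPS18A -0.258 and -0.266, MRPS18B -0.104 and -0.106, MRPS18C -0.879 and -1.01, MRPS22 -0.273 and -0.294, OXA1L -0.272 and -0.274, DAP3 -0.189 and -0.195, TUFM -0.34 and -0.343, IARS2 -0.361 and -0.37, FASTK -0.27 and -0.278, YY1 -0.3 and -0.318, ATP5B -0.308 and -0.309. With upper-quartile factors 5 turned: MRPS22 -0.067, TUFM -0.0312, IARS2 -0.0111, FASTK -0.042 and ATP5B -0.028. Without one library 15 values of 13 genes turned, within ranges of -0.566 to 0.0106 for MRPL36, -0.251 to 1.42 for MRPL42, -0.356 to 0.588 for MRPS22, -0.741 to 0.488 for MYC, -0.0675 to 0.45 for MRPL44, -0.34 to 0.0601 for MRPS5, -0.0699 to 0.4 for DAP3, -0.0737 to 0.181 for ATP5B, -0.0298 to 0.272 for MRPL24, -0.01 to 1.03 for MRPL51, -0.268 to 0.134 for MRPS2, -0.178 to 0.543 for MRPS24 and -0.337 to 0.615 for FASTK. The cause was not tested. Same-numbered libraries did not deviate together from their group means (r = -0.10 across 13937 genes), so the numbers were not taken as pairs; with a replicate block 23 genes and 0 members passed. Counting depth limits MRPS16, with 16 counts in 1 library, most.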

Other observations

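The table also describes 9 rows as mitochondrial ribosomal proteins without giving them a symbol, so they are not among the 68. The row for L53 was at 0 in all 4 libraries, and the other 8 had higher values in leptin overexpression on counts, with log2 fold changes of 0.05 (S6) to 0.89 (L1). None passed edgeR's threshold (adjusted p of 0.601 to 0.966). L1, known as MRPL1, was at 18.9 and 52.4 CPM in leptin overexpression, against 23.9 and 14.4 CPM in WT, so WT replicate 1 lay above leptin overexpression replicate 1. On CPM the groups did not overlap for MRPL30 (32.2 and 46.5 CPM, against 27.0 and 27.8 CPM in WT), MRPL32 (27.3 and 36.0 CPM, against 26.4 and 22.9 CPM in WT) and MRPL34 (53.5 and 65.2 CPM, against 48.9 and 49.2 CPM in WT). Over all tested genes 22.2% did not overlap in this direction. On FPKM the groups of MRPL30, MRPL32 and MRPL34 overlapped. On log2(FPKM + 1) the 8 ranged from -0.35 to 0.35.

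Neighbours in the RefSeq gene order were looked up for the 5 members with the largest values, after those values were seen. Given below are RBKS and CDK7, picked as the neighbours with the largest log2 fold changes, and GEMIN5 and SLC4A1AP. The other neighbours had log2 fold changes of -0.57 (SGCD, next to MRPL22) to 0.84 (CENPH, next to MRPS36). RBKS, a ribokinase next to MRPL33, was at 85.4 and 251.5 CPM in leptin overexpression, against 53.8 and 60.1 CPM in WT (log2 fold change 1.56, SE 0.52, edgeR adjusted p = 0.395). CDK7, a cyclin-dependent kinase next to MRPS36, was at 59.0 and 52.2 CPM in leptin overexpression, against 22.7 and 20.5 CPM in WT (1.36, SE 0.36, edgeR adjusted p = 0.266). GEMIN5, next to MRPL22, was at 51.0 and 44.3 CPM in leptin overexpression, against 57.6 and 43.5 CPM in WT (-0.09, SE 0.36, edgeR adjusted p = 0.94), and SLC4A1AP, on the other side of MRPL33, was at 34.4 and 34.0 CPM against 34.0 and 35.2 CPM.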
